A study of Homo sapiens with 2 samples.

Results

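The 41 genes described here encode nuclear subunits of respiratory complex I and the factors that assemble it. They are the genes whose annotated symbol begins with NDUFA, NDUFB, NDUFC, NDUFS or NDUFV, a rule that takes in NDUFAF, without pseudogenes and readthrough genes, and with at least 1 probe set paired with that gene alone. They comprise 33 subunits and 8 assembly factors, out of 19775 genes on the array. The study put the transcription factor SOX17 into KYSE170-luc, a luciferase-carrying line of human esophageal squamous carcinoma, and asked which transcripts differ. RNA was taken 12 h after transfection with a SOX17 expression plasmid (SOX17) or with an empty vector (empty vector), and both groups share the line, the medium and the transfection. The promoter that drives SOX17 in the plasmid and the share of cells transfected are not given in the sources used here. Each group had 1 array and no replicate, so every difference below is between 2 arrays and carries no test.

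Complex I, the NADH:ubiquinone oxidoreductase, is the largest enzyme of the mitochondrial respiratory chain. Its matrix arm takes electrons from NADH and passes them along iron-sulfur clusters to ubiquinone, and its membrane arm pumps protons. Most subunits are encoded in the nucleus and imported, the ND subunits of the membrane arm are made inside the mitochondrion, and assembly factors join the parts without staying in the finished enzyme.

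The deposited values are linear intensities of single probe sets, so a value can be compared between the arrays but not between genes. A gene was represented by its brightest probe set, and counted as measured where that probe set lay on both arrays at or above a floor of 95, the 60th percentile of all values. A log2 ratio divides the SOX17 intensity by the empty vector intensity, and is positive where the SOX17 array was brighter. The plasmid's own gene did not reach the floor: the probe sets of SOX17 read 83.8 and 6.5 on the SOX17 array, against 4.5 and 19.1 on the empty vector array, so these values leave the labels unchecked. All 7 epithelial genes looked up that had a probe set were measured, namely KRT5, KRT14, SOX2, DSP, PKP1, EPCAM and CDH1. Their readings on the SOX17 and the empty vector array ran from 273 and 247.5 (KRT5) to 23958.5 and 26075.5 (EPCAM). Of 9 markers of leukocytes, fibroblasts and endothelium only COL1A1 was measured. Poly-A controls, spiked into the RNA before labelling, had log2 ratios of 0.23 to 1.02 and a median of 0.57, and all 24 of their probe sets lay above 0. The ratios of all 41 complex I genes lie below that median. Their part in the results below was not tested.

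All 41 complex I genes were measured, and none of them differed by 2-fold, or even by 1.5-fold, between the arrays. Among all 10034 measured genes, 0.747% differed by at least 2-fold and 6.97% by at least 1.5-fold. Such differences were rarer in the brightest tertile of level, in which 36 of the 41 lie. Of its 3345 genes, 1 was higher and 1 lower by at least 2-fold, and 14 were higher and 39 lower by at least 1.5-fold. A count of 0 is thus little different from that of bright genes at large. The 41 genes held 78 probe sets, of which 56 reached the floor on both arrays, 7 on 1 array and 15 on neither, and 0 of the 56 differed by 1.5-fold. Within that narrow range, however, most ratios had 1 sign: 29 of 33 subunits and 7 of 8 assembly factors read higher on the SOX17 array. Over all measured genes 54.6% had a ratio above 0, and over those in the brightest tertile, in which 32 of the 33 subunits lie, 53.5% did. The median log2 ratio was 0.22 for the subunits (1.16-fold) and 0.12 for the assembly factors (1.08-fold), against 0.03 for all measured genes and 0.02 for the brightest tertile. In RNA from whole cultures, a change in how many cells carry a transcript and a change in its amount per cell cannot be told apart.

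The size of a single ratio has to be read against its error. Judged from 4574 genes that had more than 1 measured probe set, a single log2 ratio had an SD of 0.19 for bright probe sets, 0.26 for middling and 0.35 for dim ones. It was 0.18 for the 12 complex I genes with several. Such an SD holds error within an array pair only, since 1 array per group shows no spread between cultures. At a size of 1.2-fold, chosen after the values were seen, 13 of the 33 subunits had a ratio that far above 0 and 3 that far below. Of all measured genes 19.8% were higher by as much and 17.1% lower, and of those in the brightest tertile 10.8% were higher and 14.0% lower. Of the 8 assembly factors, 4 of which lie in the brightest tertile, 2 were higher by as much and 0 lower, a share near that of all genes.

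**Figure D1:**
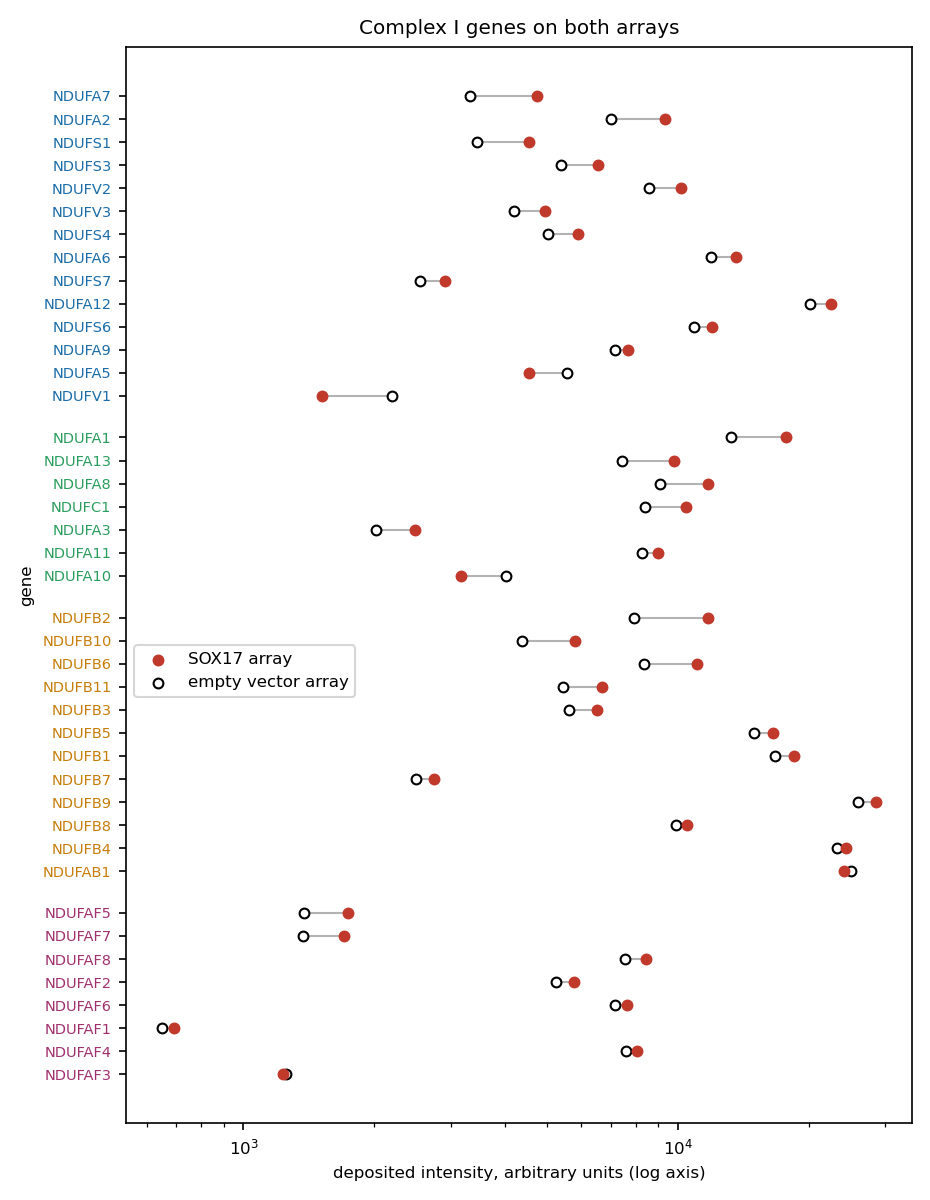
Deposited intensity (arbitrary units, log axis) of the brightest probe set of each of the 41 genes, on the SOX17 array (filled) and on the empty vector array (open). Gene names are coloured by group, from top to bottom the matrix arm, the proximal membrane arm, the distal membrane arm and the assembly factors, and the filled point lies to the right in 36 of 41 genes.

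In the matrix arm, 12 of 14 measured subunits read higher on the SOX17 array, with a median log2 ratio of 0.21. The arm also held the lowest ratio of all complex I genes. NDUFV1, the core subunit that binds NADH and its flavin cofactor, read 1512.9 on the SOX17 array and 2197.6 on the empty vector array, a log2 ratio of -0.54 (1.45-fold lower). It rests on 1 measured probe set, and it was the only subunit outside the brightest tertile. NDUFA5, an accessory subunit of the ubiquinone-binding part, was the other one that read lower, at 4540.2 on the SOX17 array and 5568.3 on the empty vector array (-0.29).

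The other core subunits with a probe set of their own read the opposite way to NDUFV1. NDUFV2, which carries an iron-sulfur cluster next to NDUFV1, read 10147 on the SOX17 array and 8597.7 on the empty vector array (0.24). NDUFS1, which carries further clusters of the electron path, read 4543.4 and 3456.7 on the SOX17 and the empty vector array (0.39). That value held on its brightest probe set alone, since the next 2 measured ones had log2 ratios of -0.09 and -0.07. For NDUFS3, a core subunit of the ubiquinone-binding part, the intensities were 6560.6 on the SOX17 array and 5371.3 on the empty vector array (0.29). NDUFS7, which holds the last cluster before ubiquinone, had 2913.3 on the SOX17 array and 2554.9 on the empty vector array (0.19). NDUFS8, a further core subunit, had only probe sets paired with several genes and was not used.

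Of the 9 accessory subunits of the matrix arm, all but NDUFA5 read higher on the SOX17 array. NDUFA7 had the highest ratio of the arm, with 4733.7 on the SOX17 array against 3326.7 on the empty vector array (0.51, 1.42-fold). NDUFA2, a small subunit with a thioredoxin-like fold, read 9325.6 on the SOX17 array and 7026 on the empty vector array (0.41). At the low end of those above 0 were NDUFS6, with 11978.5 on the SOX17 array and 10912.7 on the empty vector array (0.13), and NDUFA9, which sits where the arms meet, with 7672.7 and 7183 on the SOX17 and the empty vector array (0.10). NDUFV3, NDUFS4, NDUFA6 and NDUFA12 lay between, at 0.16 to 0.24. The other measured probe set of NDUFV3 had a log2 ratio of 0.01, and that of NDUFA6, a protein that anchors the acyl carrier NDUFAB1, had -0.04.

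The proximal part of the membrane arm had the highest median of the subunit groups, 0.31 (1.24-fold), and 6 of its 7 measured subunits read higher on the SOX17 array. NDUFA1, a small X-linked subunit needed for assembly, read 17766.7 on the SOX17 array and 13227.1 on the empty vector array (0.43). NDUFA13, also known as GRIM-19, read 9803.9 and 7440.1 on the SOX17 and the empty vector array (0.40). NDUFA8, a subunit on the side of the intermembrane space, read 11743 on the SOX17 array and 9079.9 on the empty vector array (0.37). Each of these 3 rests on 1 measured probe set.

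The remaining proximal subunits spanned both signs. NDUFC1 had 10439.5 on the SOX17 array and 8412.9 on the empty vector array (0.31), and a dim second probe set gave a log2 ratio of 0.32. NDUFA3 had 2480.8 and 2021.5 on the SOX17 and the empty vector array (0.30). For NDUFA11 the values were 9023.8 on the SOX17 array and 8282.4 on the empty vector array (0.12), and its other measured probe set gave 0.41. NDUFA10, a subunit with a nucleoside kinase fold, was the exception, at 3173.1 on the SOX17 array and 4014.7 on the empty vector array (-0.34, 1.27-fold lower). Its other 4 probe sets were below the floor on both arrays. NDUFC2 and NDUFS5 had only probe sets shared with other genes and were not used.

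In the distal membrane arm 11 of 12 subunits read higher on the SOX17 array, with a median of 0.14 (1.10-fold). NDUFB2 had the highest ratio of all complex I genes: 11717.7 on the SOX17 array and 7910.4 on the empty vector array (0.57, 1.48-fold). Its second measured probe set read 5836.6 and 4946.3 on the SOX17 and the empty vector array, a ratio of the same sign and smaller (0.24). NDUFB10 read 5799.1 on the SOX17 array and 4384.9 on the empty vector array (0.40), with 0.27 on its other probe set. NDUFB6 read 11043.8 on the SOX17 array and 8360.5 on the empty vector array (0.40), and the X-linked NDUFB11 read 6671.6 and 5430.6 on the SOX17 and the empty vector array (0.30).

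The rest of the distal arm lay closer to 0. NDUFB3 had a log2 ratio of 0.22, and NDUFB1, NDUFB5 and NDUFB7 had ratios of 0.14 to 0.15. NDUFB9 read 28619.5 on the SOX17 array and 25970.3 on the empty vector array (0.14). NDUFB4 read 24393.8 and 23302.9 on the SOX17 and the empty vector array (0.07), a sign that turned after quantile normalization and after loess. For NDUFB8, with 10522.3 on the SOX17 array and 9899.2 on the empty vector array (0.09), the other 2 measured probe sets had ratios of -0.13 and -0.22. NDUFAB1, the mitochondrial acyl carrier protein that also serves fatty acid synthesis, was the lone subunit below 0 of those sorted into the distal arm. It read 24153 on the SOX17 array and 25014.8 on the empty vector array (-0.05). NDUFA6, which anchors it, was sorted into the matrix arm, and each gene was counted in 1 group only.

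**Figure D2:**
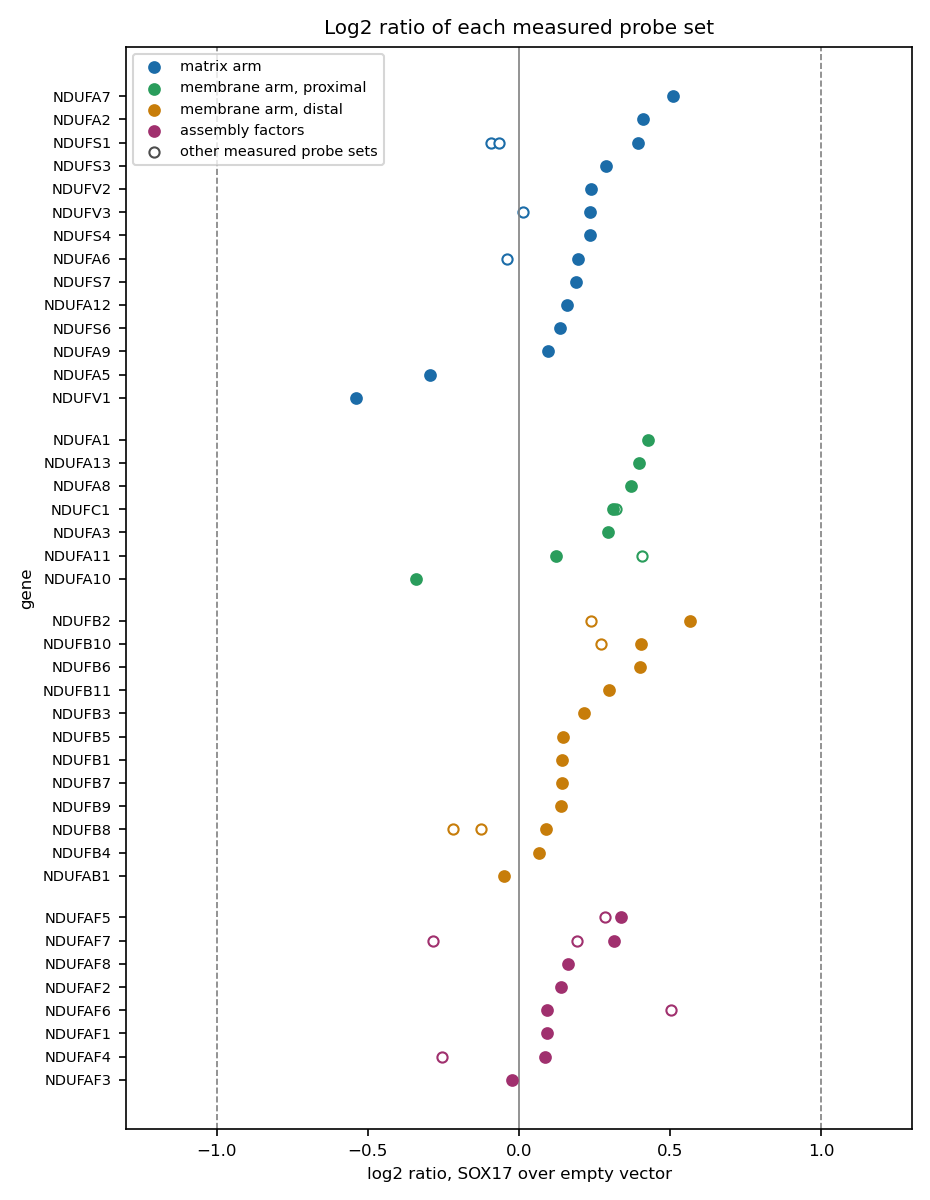
Log2 ratio, SOX17 over empty vector (x axis), for every measured probe set of the 41 genes, the brightest of each gene filled and the others open, with dashed lines at 2-fold. NDUFB2 (0.57) and NDUFV1 (-0.54) mark the ends, and the open points of NDUFS1, NDUFB8, NDUFAF4, NDUFAF7 and NDUFA6 cross 0.

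The assembly factors differed little between the arrays. NDUFAF5, which hydroxylates an arginine of NDUFS7, read 1736.7 on the SOX17 array and 1375.6 on the empty vector array (0.34, 1.26-fold), and its other measured probe set gave 0.28. NDUFAF7, an arginine methyltransferase of the mitochondrion, read 1706 and 1373 on the SOX17 and the empty vector array (0.31), but its other 2 measured probe sets had ratios of 0.19 and -0.29. NDUFAF8, the partner of NDUFAF5, read 8448.3 on the SOX17 array and 7558.1 on the empty vector array (0.16). These were the 3 highest of the 8.

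NDUFAF2, a paralog of NDUFA12 that helps to add the NADH-binding part, had 5758.2 on the SOX17 array and 5230.8 on the empty vector array (0.14). NDUFAF6 had 7626.8 and 7150.3 on the SOX17 and the empty vector array (0.09), with 0.50 on a dimmer probe set. NDUFAF1, which works on the membrane arm together with ECSIT, ACAD9 and TMEM126B, had 691.6 on the SOX17 array and 648.7 on the empty vector array (0.09). The pair NDUFAF3 and NDUFAF4, which act together on the ubiquinone-binding part, lay at both sides of 0. NDUFAF4 had 8069.6 on the SOX17 array and 7609.8 on the empty vector array (0.08), with -0.26 on its other probe set. NDUFAF3 had 1231.5 and 1252.8 on the SOX17 and the empty vector array (-0.02), and its sign turned after quantile normalization.

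Further probe sets of the same genes show how far the ratios depend on the brightest one. Of the 12 complex I genes with several measured probe sets, 7 had ratios above 0 on all of them and 5 had both signs. Over all genes with several, 48.6% had 1 sign throughout, against 58.3% for complex I. The brightest probe set had a higher ratio than the next in 9 of the 12 genes, by a median of 0.17, where the same was true of 51.4% of all genes, with a median of 0.01. Counted by probe set, 34 of 43 measured ones of subunits and 10 of 13 of assembly factors lay above 0, against 51.1% of 17364 probe sets of all genes.

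The type of probe set also went with the sign. All 18 subunits represented by a probe set whose ID ends in _s_at or _x_at, which can match several transcripts, had a ratio above 0, and all 4 subunits below 0 were among the 15 represented by a probe set of the plain _at type. The medians of both kinds, over different genes, were 0.20 for the first and 0.23 for the second. Within a gene the kinds differed. In NDUFA6, NDUFB2, NDUFB8, NDUFS1 and NDUFV3, the subunits with measured probe sets of both, every plain _at one had the lower ratio. NDUFB2 had 0.57 against 0.24, and NDUFS1 had 0.39 against -0.09 and -0.07. In each of them the _s_at probe set was also the brightest. In the brightest tertile of all genes, 57.8% of the first kind and 49.4% of the second lay above 0. The part of probe set design in the signs was not tested.

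**Figure D3:**
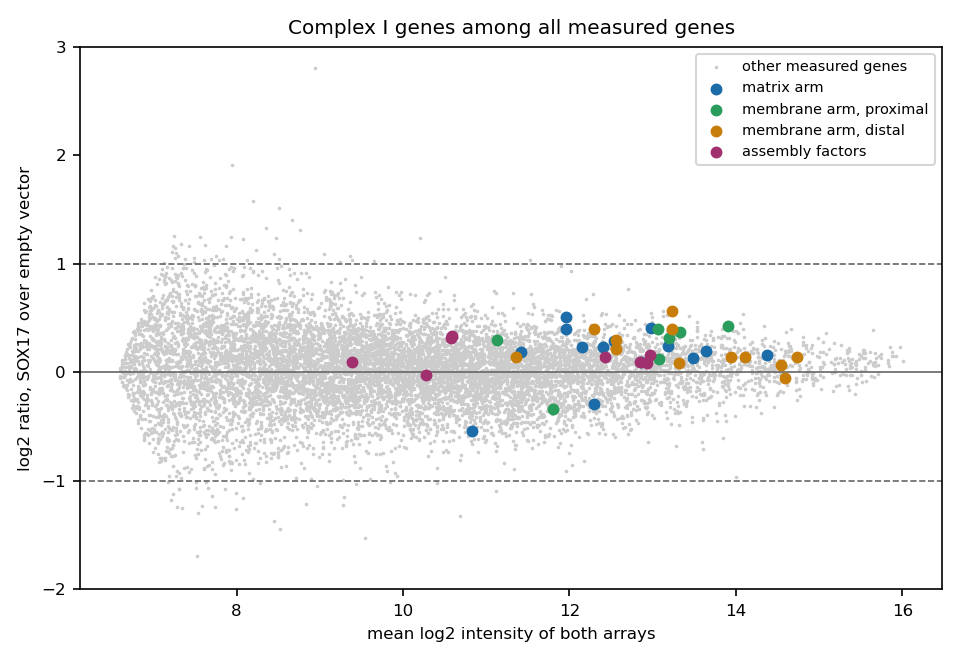
Log2 ratio, SOX17 over empty vector (y axis), against the mean log2 intensity of both arrays (x axis) for all 10034 measured genes, in grey, and the complex I genes, in colour. Most complex I genes lie among the bright genes, above 0 and well inside the dashed 2-fold lines.

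Promoter sequences are shown for the 2 subunits with the highest ratios (NDUFB2 and NDUFA7) and the 2 with the lowest (NDUFV1 and NDUFA10), to set the genes at both ends side by side. Each is the 250 bases before the annotated start, from RefSeq on GRCh38.p14, read 5′ to 3′ on the gene's strand. They lie at chr7:140696458-140696707 (+), chr19:8321376-8321625 (-), chr11:67606686-67606935 (+) and chr2:240025343-240025592 (-), in that order. Capitals mark matches on either strand to GGGCGG, the letters of an SP1 site, and to TGACGTC, the core of a CREB and ATF site.
NDUFB2: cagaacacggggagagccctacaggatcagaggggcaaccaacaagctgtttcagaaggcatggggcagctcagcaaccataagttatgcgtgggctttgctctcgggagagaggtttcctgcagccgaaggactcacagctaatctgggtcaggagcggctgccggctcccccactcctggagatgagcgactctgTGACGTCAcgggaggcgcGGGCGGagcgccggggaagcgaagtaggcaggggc
NDUFA7: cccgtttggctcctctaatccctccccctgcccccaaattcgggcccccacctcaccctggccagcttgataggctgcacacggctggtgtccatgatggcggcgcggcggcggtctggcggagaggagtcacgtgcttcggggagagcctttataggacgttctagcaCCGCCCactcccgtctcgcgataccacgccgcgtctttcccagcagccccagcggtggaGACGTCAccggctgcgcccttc
NDUFV1: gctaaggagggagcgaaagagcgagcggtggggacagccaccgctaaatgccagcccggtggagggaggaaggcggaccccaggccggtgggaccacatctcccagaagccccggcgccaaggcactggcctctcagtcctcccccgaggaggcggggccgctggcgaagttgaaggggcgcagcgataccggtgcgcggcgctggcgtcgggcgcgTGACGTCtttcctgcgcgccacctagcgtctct
NDUFA10: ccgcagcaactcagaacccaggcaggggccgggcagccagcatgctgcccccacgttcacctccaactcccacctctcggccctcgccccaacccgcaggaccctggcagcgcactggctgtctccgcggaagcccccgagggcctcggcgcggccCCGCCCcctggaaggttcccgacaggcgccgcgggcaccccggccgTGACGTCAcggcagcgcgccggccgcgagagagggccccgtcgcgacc
TGACGTC or its reverse complement GACGTCA lay in all 4, beginning 53, 22, 33 and 48 bases before the start in the order printed. In NDUFB2 and NDUFA10 both orientations overlap in the palindrome TGACGTCA. These letters were chosen as a motif after these 4 promoters had been read, so their presence in the 4 is no finding. Among the 31 subunits with a promoter sequence no other one held them in this window, 0 of 7 assembly factors did, and 4.19% of 15842 protein-coding promoters do. The genes that hold them had ratios of both signs, which followed from picking 2 with the highest ratios and 2 with the lowest.

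Motifs of the factors known for respiratory chain promoters, and 1 of the SOX family, were looked up in the same window on both strands. CCGGAAG, the core of the GABP and other ETS sites, lay in 5 of 31 subunit promoters (NDUFA1, NDUFA13, NDUFB7, NDUFS1 and NDUFS3) and in that of NDUFAF4, and in 11.8% of all. CATGCGC, a part of the NRF1 site, lay in 4 (NDUFA6, NDUFB4, NDUFS6 and NDUFS7), and in 5.04% of all. AAGATGG, the core of the YY1 site, lay in that of NDUFA3, and in 3.35% of all. GGGCGG lay in 20 of 31 subunit promoters, in 1 of 7 assembly factor promoters (NDUFAF2), and in 56% of all. ACAATG, 1 form of the SOX family motif, lay in the promoter of NDUFS4 alone, and in 6.70% of all. These matches are letters in a window and not binding sites.

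Other factors of complex I assembly outside the NDUF names also mostly read higher on the SOX17 array. Of 13 listed, all measured, 11 had a ratio above 0, with a median of 0.10, and 0 differed by 1.5-fold. COA1 had the highest ratio of them, 0.56, with 2303 on the SOX17 array and 1559.5 on the empty vector array, but its 3 probe sets ranged from -0.93 to 0.56. TIMMDC1, a membrane-arm assembly factor, read 7600.1 and 5450.3 on the SOX17 and the empty vector array (0.48). DMAC1, needed for the distal membrane arm, had a ratio of 0.43 and DMAC2 one of -0.28.

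Of the mitochondrially encoded subunits, ND2, ND4 and ND6 had a probe set of their own. ND4 read 43909.3 on the SOX17 array and 42519.5 on the empty vector array (0.05), and ND2 read 33275.1 and 34220.1 on the SOX17 and the empty vector array (-0.04). ND6, the one ND gene transcribed from the light strand promoter, read 3915.9 on the SOX17 array and 5795.8 on the empty vector array (-0.57, on 1 probe set). TFAM, which starts mitochondrial transcription and packs its DNA, had a ratio of -0.35 and ranged from -0.69 to -0.05 over 3 probe sets. Of 12 measured regulators of mitochondrial biogenesis 6 lay above 0 and 6 below, with PPARGC1B at -0.32, PPRC1 at -0.25 and POLRMT at 0.23.

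Genes of the other respiratory complexes had a similar lean. Of 38 measured genes of complexes II to V 34 lay above 0, with a median of 0.15, and 0 differed by 1.5-fold. The medians were 0.12 for complex II (7 genes), 0.18 for complex III (7), 0.18 for complex IV (10) and 0.15 for complex V (14). Unlike the complex I groups, the complex II list mixes subunits with the assembly factors SDHAF1 to SDHAF4. Its measured subunits were SDHA (-0.11), SDHC (0.21) and SDHD (0.07). The 6 measured probe sets of SDHC ranged from -0.41 to 0.31. With 1 array per group the difference between the complex I subunits and these lists could not be tested. The largest ratios there were those of SDHAF1 (0.40), UQCR11 (0.40), COX7A2 (0.40) and ATP5MG (0.37). COXFA4, formerly NDUFA4 and counted as a complex I subunit before it was assigned to complex IV, read 33508.1 on the SOX17 array and 32326.1 on the empty vector array (0.05). Its paralog COXFA4L2 (formerly NDUFA4L2) was below the floor on both arrays.

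**Figure D4:**
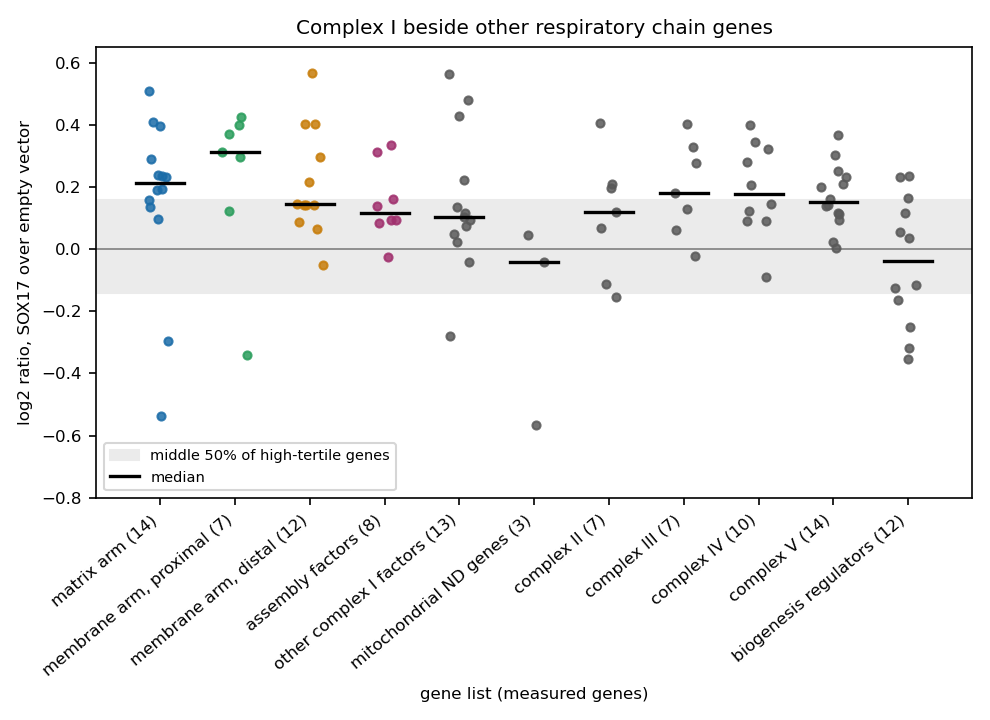
Log2 ratio, SOX17 over empty vector (y axis), for each measured gene of the complex I groups, in colour, and of other lists, in grey, with the number of genes in brackets and a bar at each median. The grey band is the middle 50% of genes in the brightest tertile (-0.14 to 0.16). The medians of the matrix arm (0.21) and of the proximal membrane arm (0.31) lie above it, as do those of complexes III and IV (0.18 each), and those of the other lists lie inside it.

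The median of the subunits and that of the assembly factors stayed above 0 under all 3 other scalings. The subunit median was 0.18 after centring on the median ratio, 0.21 after quantile normalization and 0.20 after loess of the ratio on the level, with 28 of 33 above 0 after each of the last 2. Leaving out probe sets ending in _s_at or _x_at left 20 measured subunits, of which 13 lay above 0 and 7 below. Of all measured genes 51.3% then lay above 0, and of those in the brightest tertile 47.9%. The subunit median was 0.14, against 0.01 for all genes. NDUFS1, NDUFA6 and NDUFB8 then changed sign, since they were represented by another probe set.

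**Figure D5:**
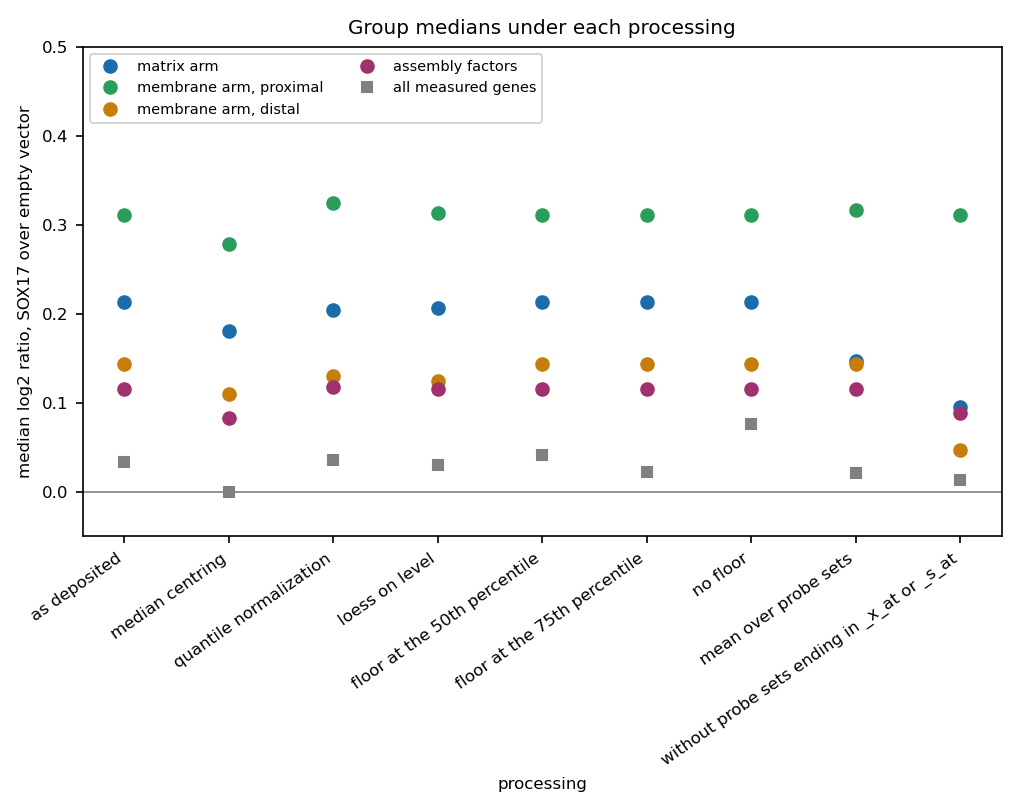
Median log2 ratio, SOX17 over empty vector (y axis), of each complex I group and of all measured genes (squares) under each processing (x axis). Every complex I group stays above 0 and above the median of all genes, and the medians of the matrix arm and the distal membrane arm are at their lowest once probe sets of the types _x_at and _s_at are left out (0.10 and 0.05).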

How the data were processed

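RNA of 1 empty vector and 1 SOX17 transfection of KYSE170-luc cells was measured on 1 Affymetrix array each. The deposited table holds a linear intensity per probe set, which the authors obtained from GCOS (per the submitters' processing notes). Which algorithm, settings and version were used is not given in the sources used here. Both arrays had a mean intensity of 500.1 without the lowest and highest 2% of values, which means that they were put on a common mean before deposit. They were used unchanged, and precision is limited by there being 1 array per group.

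Probe sets were paired with genes by GEO's platform annotation, and only those paired with 1 gene were used. Antisense and divergent transcripts (NDUFV1-DT, NDUFV2-AS1, NDUFB2-AS1) are no members. Subunits were sorted into arms, and further lists fixed, from general knowledge. The members and lists were chosen with earlier results of these data known. Values on both arrays are given for core subunits, assembly factors, the 4 highest and 4 lowest ratios of each subunit group, and any member with a probe set past 1.5-fold. Other lists name up to 4 genes by size of ratio. ECSIT, ACAD9 and TMEM126B are named for their role alone, and the marker genes were named outside that rule, after their values were seen. The error of a ratio is the SD of the difference between the 2 brightest measured probe sets of a gene, divided by the square root of 2.

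Alternatives were median centring, quantile normalization, loess (span 0.4), a floor at the 50th percentile, at the 75th or absent, averaging a gene's probe sets, leaving out probe sets ending in _x_at or _s_at, and 1.5-fold and 3-fold thresholds. The 1.2-fold threshold and the CREB and ATF motif were added after the data were seen. Promoter sequences were found for 38 of 41 members. The scripts, tested on simulated data, used Python 3.11.15, numpy 2.4.6, pandas 2.3.3 and statsmodels 0.14.6.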

Additional observations from a re-analysis of the deposited data

How the results depend on the processing

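No paired analysis was possible because each group had 1 array. The numbers of complex I subunits and of assembly factors past 2-fold, 0 of each, were also 0 under all 8 planned processing alternatives and at 1.5-fold and 3-fold. At 1.2-fold, added after the data were seen, 16 subunits (13 higher and 3 lower) and 2 assembly factors (both higher) passed, where 19.8% of all measured genes were higher by as much and 17.1% lower. The subunit median of 0.22 ranged from 0.18 to 0.22 under 7 of the alternatives and was 0.14 with the _x_at and _s_at probe sets left out, which kept 20 of 33 subunits. The assembly factor median of 0.12 ranged from 0.08 to 0.12 under the 8. Of the 41 single ratios, all 41 stayed within 1 SD of a ratio under every scaling and floor, 2 moved by more with the mean over probe sets, and 5 of the 24 then measured did so with the _x_at and _s_at probe sets left out. With the mean over probe sets NDUFAF4 and NDUFB8 changed sign. Scaling to a common mean hides any change that all transcripts share.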
